A study of Mus musculus with 6 samples.

Results

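The genes described here encode the metalloproteases that cut the extracellular matrix and cell surface proteins, their protease-free relatives and the inhibitors that hold them in check. They were taken by name: every probe set with 1 platform gene symbol made of Adam, Adamts, Adamtsl, Mmp or Timp and a number, at times with a letter, and 1 probe set per gene was used, that of the highest mean log2 signal. This gave 124 probe sets for 70 genes of 18193 genes with 1 symbol: 28 Adam, 15 Adamts, 5 Adamtsl, 18 Mmp and 4 Timp genes. RNA came from heart ventricles of 129SvEv mouse embryos at stage E11.5. Knockout embryos carried a targeted deletion of skNAC, a long transcript of Naca made in muscle, which the labels describe as lethal by E12.5 with cardiac defects, and the controls were wild-type littermates. Each genotype had 3 arrays of a 1-colour Affymetrix mouse design, identified by their title numbers as knockout 1, 26 and 66 and as wild-type 13, 23 and 57. The labels do not say whether an array held 1 heart or several, or give the extent of the deletion, so p-values measure only the spread between these samples, which may be technical.

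ADAM proteins sit in the cell membrane and shed the outer parts of receptors and growth factors. ADAMTS proteins are secreted and cut proteoglycans and procollagens, ADAMTSL proteins share their non-catalytic modules, and MMPs are secreted or membrane-bound enzymes that cut collagens, gelatin and other matrix proteins. TIMPs bind the active site of MMPs and of some ADAM and ADAMTS enzymes. In the embryonic heart these enzymes act on the cardiac jelly between myocardium and endocardium, on the endocardial cushions and on ligands of the Notch and ErbB pathways.

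Signals are MAS5 intensities, scaled by the authors so that every array had a 2% trimmed mean of 250. Array medians ran from 92.0 to 113.9. Knockout 66 stood apart, with a first principal component score of 55.9 against -24.7 to 4.79 for the other arrays, and for many genes the difference is also given without single arrays. All 8 cardiomyocyte markers were above the filter described next. Both Naca probe sets read 7406 or more on every array, and it is unknown here whether either reads the deleted part, so they check no label. The 3' to 5' signal ratio of actin was 2.49 to 2.57 in the knockout arrays and 2.05 to 2.24 in the wild-type arrays. The ratio of Gapdh was 1.28 to 1.45 and 1.12 to 1.20 in the same order, and the part of RNA quality in the differences below was not tested.

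Probe sets were tested where their mean log2 signal exceeded the median over the array design, equal to a signal of 95.2 and called the filter here. This held for 36 of the 70 genes, which were tested in limma with Benjamini-Hochberg adjustment over 11661 genes. Just above that level lay Mmp8 (mean signal 97.1) and Mmp3 (99.0), and just below it Mmp7 (84.0) and Adamts20 (77.1). The other 34 genes are described without a test, since a probe set below it may report little more than background. They include 15 Adam genes, among them several known from sperm and testis (Adam2, Adam5, Adam18, Adam24, Adam32), and 9 Mmp genes, among them the collagenases Mmp1a, Mmp1b and Mmp13 and the macrophage elastase Mmp12. The 4 Timp genes were all above it.

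No difference between genotypes passed the threshold in any of these genes. In limma, 0 of the 36 tested genes had an adjusted p under 0.05, where 0% of all 11661 genes did, and the adjusted p of the 36 ran from 0.974 to 0.999. At an unadjusted p under 0.05 there were 2 genes, Adam12 and Mmp9, both higher in knockout, against 4.69% of all genes and 2.18% in that direction. Mmp9 passed the filter through the knockout arrays, where it is high, so its count is no support. Knockout and wild-type signals did not overlap in Adam12 and Mmp9 and overlapped in the other 34, where 10.9% of all tested genes were without overlap. Over all 70 genes the median log2 difference (knockout minus wild-type, on the log2(signal + 16) scale) was -0.013, with 36 genes below 0 and 34 above. The median over all 18193 genes was 0.0028, with 49.5% below 0. The 36 tested genes alone had a median of -0.10, with 22 below 0 and 14 above. Over all 11661 tested genes the median was 0.0023, with 5780 below 0. The 34 genes below the filter had a median of 0.035, with 14 below 0 and 20 above. The arrays of the genotypes did not overlap in 7 of the 70 genes, 5 with knockout above and 2 with knockout below, where 10.6% of all genes had no overlap, 5.24% with knockout above and 5.36% with knockout below.

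The intervals show what size of difference the arrays could resolve. The 95% interval of the log2 difference had a median half-width of 0.53 over the 36 tested genes. It lay within -1 to 1, that is within a doubling or halving on this scale, for 29 of them, and it included 0 for 34.

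**Figure D1:**
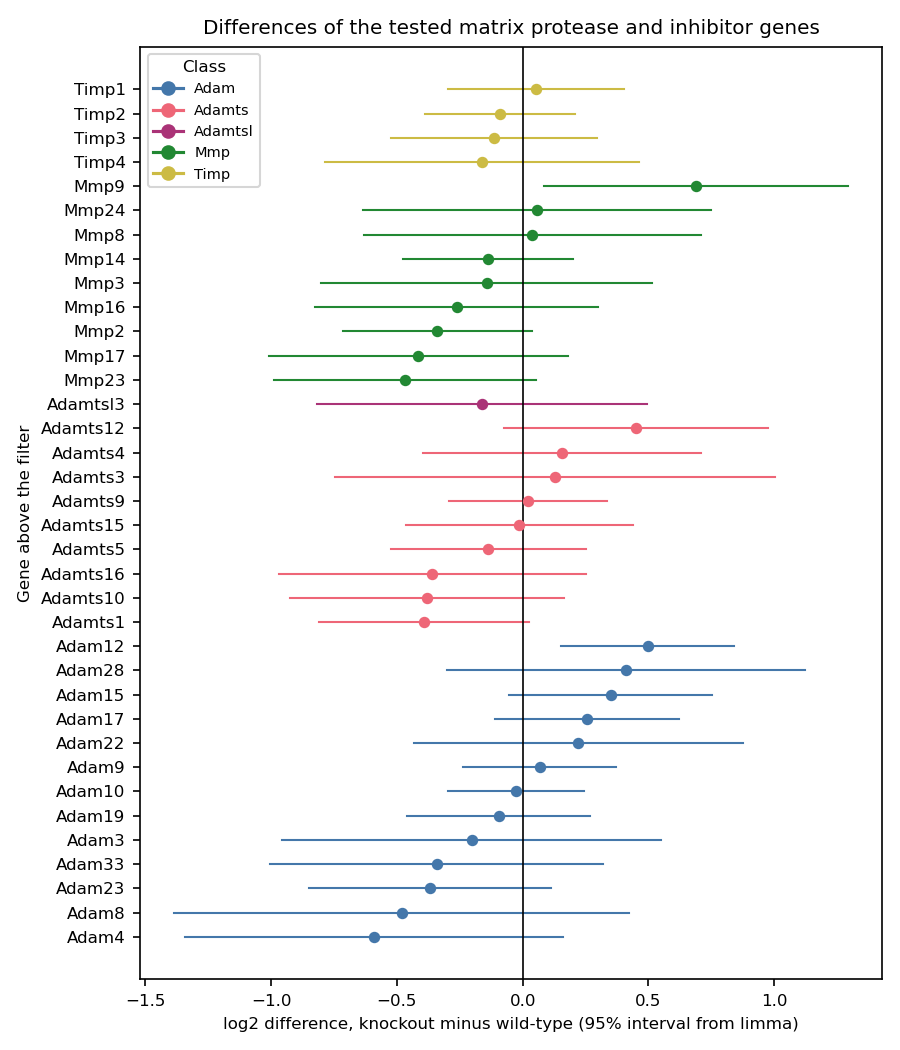
The log2 difference, knockout minus wild-type, of each of the 36 tested genes (points) with its 95% interval from limma (lines), grouped and coloured by class, n = 3 arrays per genotype. The intervals of Adam12 and Mmp9 lie above 0 and those of the other 34 genes include 0.

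Adam12, which sheds heparin-binding EGF-like growth factor among other ligands, had the smallest p of the 36 genes. It read 524, 569 and 659 on knockout arrays 1, 26 and 66 and 444, 434 and 351 on wild-type arrays 13, 23 and 57. All knockout arrays lay above all wild-type arrays. The log2 difference was 0.50 ± 0.16 (SE, n = 3 per genotype), with an unadjusted p in limma of 0.00871 and an adjusted p of 0.974. The second Adam12 probe set above the filter, which was dimmer, read 94.8, 123 and 108 in the knockout arrays and 108, 103 and 160.0 in the wild-type arrays. Its difference was -0.15 ± 0.27, opposite in sign, and averaging the probe sets of each gene gave 0.18.

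Mmp9, a gelatinase, had the largest positive difference among the tested genes. It read 152, 139 and 166 on knockout arrays 1, 26 and 66 and 61.3, 95.6 and 114 on wild-type arrays 13, 23 and 57. The groups did not overlap, and the wild-type mean of 90.4 lay below the level at which probe sets were kept. Mmp9 was thus tested through the knockout arrays, where it is high, and its p is no support for a difference. The difference was 0.69 ± 0.27 (SE), with an unadjusted p of 0.0291 and an adjusted p of 0.974 in limma. A second Mmp9 probe set read at most 15.0 on every array.

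The next positive differences by p belonged to Adam15, Adamts12 and Adam17. Adam15, a membrane protease of endothelial and other cells, read 424.5, 462 and 655 on knockout arrays 1, 26 and 66 and 445, 362 and 376 on wild-type arrays 13, 23 and 57. The groups overlapped, and its highest array was knockout 66. The difference was 0.35 ± 0.18 (SE), or 0.17 without knockout 66, and its other tested probe set gave 0.19.

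Adamts12, a secreted protease that cuts cartilage oligomeric matrix protein, read 150.1, 209 and 219 on knockout arrays 1, 26 and 66 and 139.7, 163 and 108 on wild-type arrays 13, 23 and 57. Only the lowest knockout array and the highest wild-type array overlapped. The difference was 0.45 ± 0.24 (SE), with an unadjusted p of 0.0859 and an adjusted p of 0.974 in limma.

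Adam17, the sheddase of tumour necrosis factor and of several ErbB ligands, read 514, 382 and 407 on knockout arrays 1, 26 and 66 and 394, 320.4 and 364 on wild-type arrays 13, 23 and 57. The groups overlapped, with knockout 1 the highest. The difference was 0.26 ± 0.17 (SE), or 0.13 without knockout 1, and its other 2 probe sets above the filter gave 0.23 and 0.02.

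Adamts1, a versican-cutting protease of the cardiac jelly and trabeculae, had the smallest p of the genes that read lower. It read 404, 669.9 and 538 on knockout arrays 1, 26 and 66 and 714, 592.5 and 796 on wild-type arrays 13, 23 and 57. Knockout 26 lay among the wild-type arrays and the other knockout arrays lay below them. The interval of the difference ran from -0.81 to 0.02, and the difference of -0.39 ± 0.19 (SE) was -0.21 without knockout 1 and -0.56 without knockout 26.

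Mmp2, the gelatinase of mesenchymal cells, read 818, 692 and 972 on knockout arrays 1, 26 and 66 and 1204, 1130.4 and 828 on wild-type arrays 13, 23 and 57. The groups overlapped through knockout 66 and wild-type 57. The difference was -0.34 ± 0.17 (SE), with an unadjusted p of 0.0725 and an adjusted p of 0.974 in limma, and it ran from -0.50 to -0.22 over the left-out arrays. Its second probe set gave -0.09 ± 0.19, with its highest value in knockout 66, at 829.6, and the next in wild-type 13, at 719.

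Mmp23, a small membrane-anchored MMP, read 138, 235 and 132 on knockout arrays 1, 26 and 66 and 233, 251.5 and 211 on wild-type arrays 13, 23 and 57. Knockout 26 was level with the wild-type arrays. The difference was -0.47 ± 0.24 (SE), and its other probe set pointed the same way at -0.38 ± 0.23. The former was -0.71 without knockout 26.

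Adam4 and Adam23 completed the 5 genes of smallest p in that direction. Adam4, best known from testis, read 146, 384 and 456.5 on knockout arrays 1, 26 and 66 and 362, 449 and 581 on wild-type arrays 13, 23 and 57. One array, knockout 1, was far below the others, and the difference of -0.59 ± 0.34 (SE) was -0.12 without it and -0.89 without knockout 66. Adam23, a family member without a working protease site that is known from neurons, read 422, 264 and 486 in the knockout arrays and 481, 585 and 428 in the wild-type arrays. Its groups overlapped and its difference was -0.37 ± 0.22 (SE), with -0.25 from its other tested probe set. It ran from -0.54 without knockout 66 to -0.12 without knockout 26, its lowest array.

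**Figure D2:**
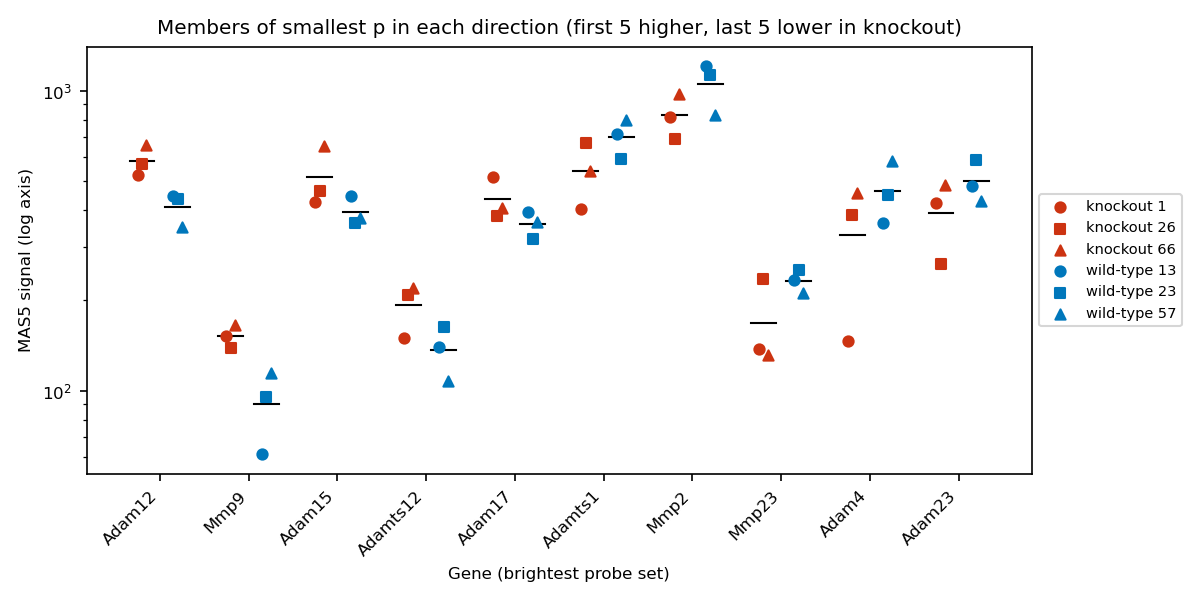
MAS5 signal (log axis) of the 10 genes of smallest unadjusted p, the first 5 higher and the last 5 lower in knockout, with 1 point per array (red knockout, blue wild-type) and bars at the means of 3 arrays. The genotypes are apart in Adam12 and Mmp9 and overlap in the other 8 genes.

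Markers of cushion mesenchyme and neural crest, cells that produce matrix and its proteases, had a lower summed signal in the knockout arrays. None passed an adjusted p of 0.05 in limma with all 6 arrays. Without knockout 66, Postn did, as the only gene of all those tested. The summed signal of the 7 markers was 2504 to 3114 in knockout and 3508 to 3738 in wild-type, 6 of 7 read lower (4 of 7 without knockout 1) and none was at 0. Bright genes weigh most in such a sum, and Postn was the brightest. It read 753, 705 and 1551 on knockout arrays 1, 26 and 66, with overlap. On wild-type arrays 13, 23 and 57 it read 1415, 1645 and 1480. Snai2, Postn and Pdgfrb had an unadjusted p under 0.05 in limma, where 4.69% of all genes did, while Prrx1 at -0.02 and Sox9 at 0.0033 lay near 0. Snai2, a transcription factor of migrating mesenchyme, read 511, 278 and 234.5 on knockout arrays 1, 26 and 66 and 558.5, 527 and 594 on wild-type arrays 13, 23 and 57, with knockout 1 close to the wild-type arrays. The part of these markers in the differences of Adamts1, Mmp2 or Mmp23 was not tested, and in ventricle RNA fewer cells of a type and less RNA per cell cannot be told apart. The sums of endothelial markers (4407 to 4644 in knockout, 4334 to 4595 in wild-type) and of epicardial markers (4763 to 5775 and 4623 to 5167) overlapped between genotypes. Of the 7 epicardial markers 4 read lower. Krt8 read higher without overlap, at 1056 to 1621 in knockout and 603 to 787 in wild-type. Its difference was 0.80 ± 0.18 (SE), with an unadjusted p of 0.000827 and an adjusted p of 0.742 in limma. With array quality weights Krt8 was 1 of 8 genes with an adjusted p under 0.05. The endothelial Pecam1 read lower without overlap, at -0.28 ± 0.22. Cardiomyocyte markers summed to 88033 to 97004 in knockout and 84773 to 91228 in wild-type, also with overlap. Myl2 (0.23 ± 0.10, unadjusted p of 0.0343 in limma) and Actc1 (0.15 ± 0.09) read higher in knockout without overlap. Of all tested genes, 10.9% were without overlap. Of the 8 cardiomyocyte markers 5 read higher, or 1 with quantile normalization. The 4 liver markers, all below the filter, read higher in knockout, with sums of 229 to 390 and 135.5 to 178 in wild-type. Sums of 4 platelet markers (1611.5 to 1864.5 and 1791.6 to 2322.1) and 4 foregut markers (175 to 251 and 152.9 to 305) overlapped. The platelet gene Ppbp read lower without overlap, at -0.56 ± 0.14 (unadjusted p of 0.00176, adjusted p of 0.919 in limma). The part of dissection was not tested. Macrophage markers, of cells that can supply Mmp9 and Mmp12, summed to 774 to 916 in knockout and 807 to 865 in wild-type, with 4 of 5 reading higher in knockout, by 0.08 to 0.25 and 2 of them below the filter. The fifth, Csf1r, the receptor that macrophages depend on, read 306, 370.0 and 364 on knockout arrays 1, 26 and 66 and 409.6, 411.5 and 394 on wild-type arrays 13, 23 and 57, without overlap. Mrc1, below the filter, was without overlap in the other direction, at 97.9 to 106.8 in knockout and 79.0 to 94.6 in wild-type. With or without the filter, 10.6% of all genes had no overlap.

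The TIMPs showed no difference on their brightest probe sets that exceeded the spread between arrays. Their log2 differences lay between -0.16 and 0.05. Timp1, a secreted inhibitor, read 306, 289 and 282.5 on knockout arrays 1, 26 and 66 and 259, 293 and 294 on wild-type arrays 13, 23 and 57. The interval of its difference was -0.30 to 0.40. Timp4, known from adult heart muscle, read 87.3, 102 and 108 in the knockout arrays and 119, 82.3 and 144 in the wild-type arrays, with an interval from -0.78 to 0.46. Its difference of -0.16 was -0.35 without wild-type 23 and -0.0021 without wild-type 57.

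Timp2, which both inhibits MMPs and helps Mmp14 to activate the Mmp2 precursor, read 608, 689.6 and 772 on knockout arrays 1, 26 and 66 and 785, 712 and 704 on wild-type arrays 13, 23 and 57. The groups overlapped and the difference was -0.09 ± 0.14 (SE), while its next brightest probe set gave -0.34 ± 0.17. The former was -0.17 without knockout 66 and -0.0062 without knockout 1. Its 5 probe sets above the filter were spread from -0.68 to 0.08, with 4 of them below 0. The lowest read 288, 133 and 445 in the knockout arrays and 360.4, 504 and 423 in the wild-type arrays, overlapping between genotypes. Its difference of -0.68 ± 0.33 had an unadjusted p of 0.0654 in limma.

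Timp3, a matrix-bound inhibitor that also acts on ADAM17 and ADAMTS enzymes, differed by probe set. The brightest read 535, 547 and 855 on knockout arrays 1, 26 and 66 and 605.5, 761 and 692 on wild-type arrays 13, 23 and 57. Knockout 66 was its highest array, and the other knockout arrays were its lowest. The difference was -0.11 ± 0.19 (SE), or -0.33 ± 0.14 without knockout 66 and 0.0021 without knockout 1. A second probe set read 402, 287 and 382.5 in the knockout arrays and 455, 518 and 529.8 in the wild-type arrays, with no overlap. Its difference was -0.48 ± 0.17, with an unadjusted p of 0.0149 and a p of 0.975 adjusted over all probe sets in limma. A further Timp3 probe set gave 0.19 ± 0.24.

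**Figure D3:**
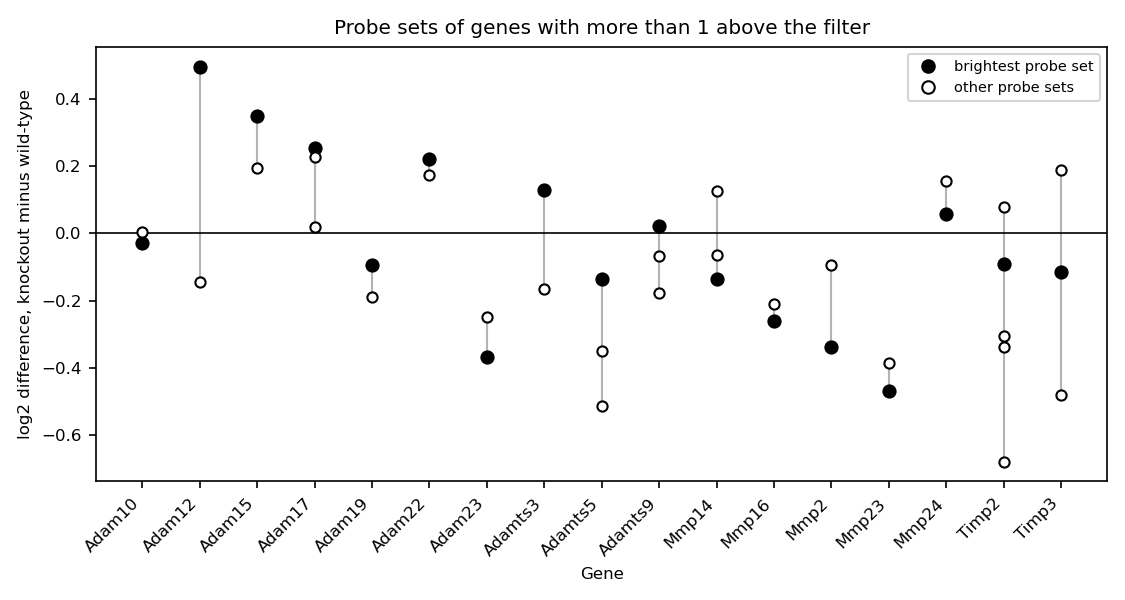
The log2 difference, knockout minus wild-type, of each probe set above the filter in the 17 genes with more than 1 (filled points, brightest probe set; open points, others). In 7 of the 17 genes the points lie on both sides of 0, among them Adam12, Timp2 and Timp3.

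Among the proteases named for known roles in the embryonic heart, Adam10, Adam19, Mmp14, Mmp16, Adamts5 and Adamts9 overlapped between genotypes. Adam10, the sheddase that opens Notch receptors to activation, read 2785, 2379 and 2024 on knockout arrays 1, 26 and 66 and 2458, 2364 and 2448 on wild-type arrays 13, 23 and 57. Its difference of -0.03 ± 0.12 (SE) had an interval from -0.30 to 0.24, among the narrowest here. Adam19, which sheds neuregulins and is needed in cushion and valve formation, read 589.9, 804 and 933 in the knockout arrays and 854, 775 and 819 in the wild-type arrays. Knockout arrays were both its lowest and its highest, and the difference of -0.10 ± 0.16 (SE) was -0.24 without knockout 66 and 0.085 without knockout 1. Adam9, another membrane sheddase with a bright probe set, gave 0.07 ± 0.14.

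Mmp14, the membrane-bound activator of Mmp2, read 639, 627 and 888 on knockout arrays 1, 26 and 66 and 745, 812 and 786 on wild-type arrays 13, 23 and 57. Knockout 66 lay above every wild-type array and the other knockout arrays lay below them. The difference was -0.14 ± 0.15 (SE), or -0.30 ± 0.12 without knockout 66 and -0.05 without knockout 26. Its dimmer probe sets above the filter gave -0.06 ± 0.23 and 0.13 ± 0.29, of both signs. Mmp16, a second membrane-bound MMP, read 241, 195 and 335 in the knockout arrays and 214, 320.0 and 409.9 in the wild-type arrays. Its groups overlapped, and its difference of -0.26 ± 0.26 (SE) ran from -0.50 without wild-type 13 to -0.06 without wild-type 57, with -0.46 without knockout 66.

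Adamts5 and Adamts9, which cut versican in the developing valves, were also within the spread. Adamts5 read 277, 248 and 351 on knockout arrays 1, 26 and 66 and 296, 335 and 328 on wild-type arrays 13, 23 and 57. The difference was -0.27 without knockout 66, its highest array, and -0.03 without knockout 26. Its 3 tested probe sets gave -0.14, -0.35 and -0.51, and on the last of them, its dimmest, the knockout arrays (77.8, 109.6 and 81.6) lay below the wild-type arrays (112, 178.5 and 118). That difference had an unadjusted p of 0.0962 in limma. The knockout mean of that probe set, 89.7, lay below the filter and its wild-type mean was 136. It was thus tested through the wild-type arrays, where it is high, and is no support for a difference. Adamts9 read 583, 554 and 688 in the knockout arrays and 589.9, 548 and 658 in the wild-type arrays, a difference of 0.02 ± 0.14 (SE). Adamts20, a further versican protease, was below the filter, at 59.9, 119.7 and 90.4 in the knockout arrays and 51.2, 78.2 and 77.6 in the wild-type arrays.

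**Figure D4:**
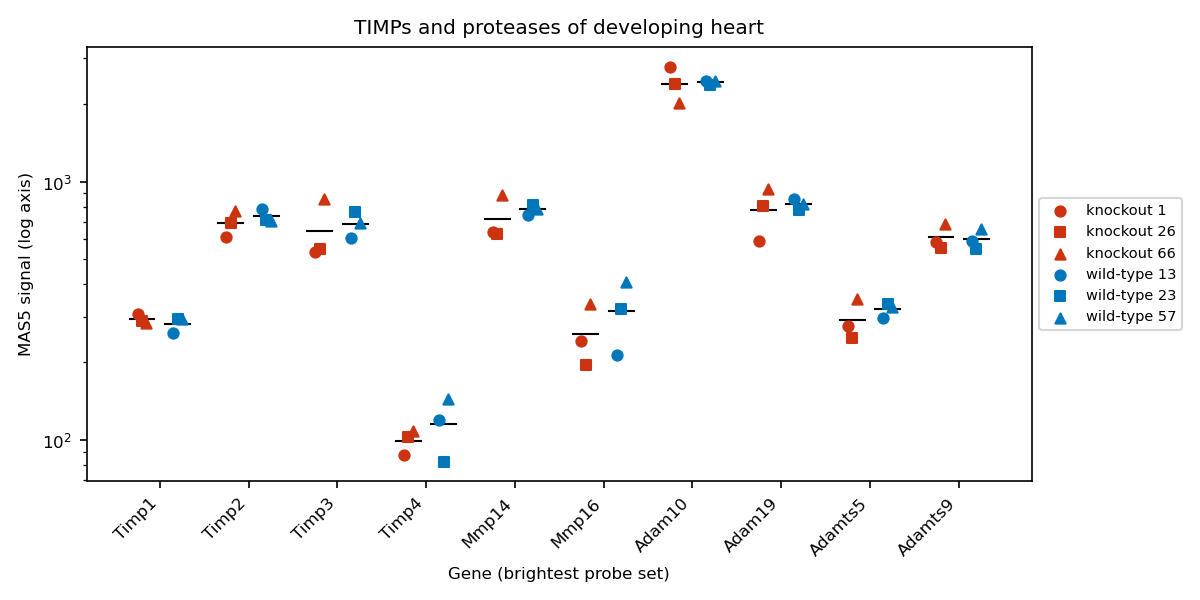
MAS5 signal (log axis) of the 4 Timp genes and of 6 proteases known from the developing heart, with 1 point per array (red knockout, blue wild-type) and bars at the means of 3 arrays. The genotypes overlap in all 10 genes, and knockout 66 is the highest array in Timp3, Mmp14, Adam19, Adamts5 and Adamts9.

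By class, the medians of all genes with or without the filter were 0.02 for Adam (13 of 28 below 0), 0.02 for Adamts (7 of 15), -0.014 for Adamtsl (3 of 5), -0.14 for Mmp (10 of 18) and -0.10 for Timp (3 of 4). The medians of Mmp and Timp were below 0 in every alternative run. That of Adam turned to -0.019 without wild-type 13. That of Adamts ran from -0.19 without knockout 66 to 0.14 without knockout 1, and was also below 0 with a pseudocount of 1 (-0.015), array quality weights (-0.030), averaged probe sets (-0.018) and without knockout 26 (-0.02), wild-type 13 (-0.15) or wild-type 23 (-0.04). That of Adamtsl, over 5 genes, ran from -0.37 without knockout 26 to 0.13 with array quality weights. The Mmp median was -0.25 without knockout 66 and -0.05 without knockout 1, and the Timp median was -0.20 and -0.0020 in the same order.

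The remaining tested genes had log2 differences between -0.48 and 0.41. Adam28, a protease of lymphocytes and epithelia, was at 0.41 ± 0.32 (SE) and Adam8, known from leukocytes, at -0.48 ± 0.41. The membrane-anchored Mmp17 was at -0.41 ± 0.27, and Mmp24, also membrane-bound, at 0.06 ± 0.31. Adamts10, linked to fibrillin microfibrils, was at -0.38 ± 0.25 and Adamts16 at -0.36 ± 0.28. The stromelysin Mmp3 was at -0.14 ± 0.30 and the neutrophil collagenase Mmp8 at 0.04 ± 0.30. Adamtsl3, the only Adamtsl gene above the filter, read 97.0, 181 and 96.8 in the knockout arrays and 101.5, 157 and 157 in the wild-type arrays. Its difference of -0.16 ± 0.30 (SE) was -0.43 without knockout 26, its highest array. None of these genes had groups without overlap.

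Knockout 66 and knockout 1 lay at opposite ends for many of these genes. Of the 36 tested genes, 15 (41.7%) had their highest signal in knockout 66, where 27.0% of all genes above the filter did. Another 12 (33.3%) had their lowest signal in knockout 1, against 17.8% of all genes. The median deviation of the 36 genes from their 6-array mean was -0.20 in knockout 1, 0.02 in knockout 26 and 0.17 in knockout 66. In the wild-type arrays it was -0.05, 0.06 and 0.11 in wild-type 13, 23 and 57, so the knockout arrays spanned a wider range than the wild-type arrays and enclosed it. Over all genes above the filter these medians lay between 0.0025 and 0.013.

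Without knockout 66 more of the genes read lower in knockout. The median over the 70 genes was -0.18, with 42 below 0, while the median of all genes was -0.012. Of the 36 genes then tested, 7 had an unadjusted p under 0.05 in limma, against 7.41% of all genes: Timp3, Adam4, Mmp2, Adam23, Mmp14 and Mmp7 lower and Adam12 higher. Mmp7 lay below the filter over all 6 arrays and passed it in that fit through the wild-type arrays and knockout 26, where it is high, so its count there is no support. None had an adjusted p under 0.05, and the smallest was 0.621. Of all genes 0.0086% did, that is 1 gene, the cushion mesenchyme marker Postn. Mmp2 was at -0.46 ± 0.16 (SE, 2 knockout and 3 wild-type arrays) in that fit. Without knockout 1 the median over the 70 genes was 0.015, with 32 below 0.

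**Figure D5:**
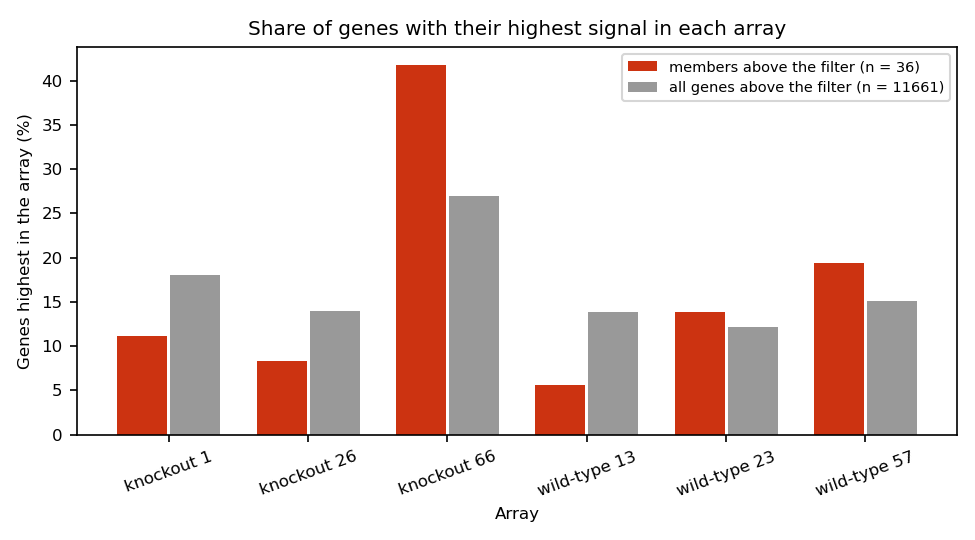
Percent of genes whose highest signal of the 6 arrays falls in each array, for the 36 tested genes of these families (red bars) and for all 11661 genes above the filter (grey bars). Knockout 66 holds 41.7% of the former and 27.0% of the latter.

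Below the filter, 5 of 34 genes had groups without overlap, where 10.2% of all genes below it did. Adam21 read 9.70, 32.7 and 36.4 in knockout 1, 26 and 66 and at most 7.40 in wild-type. Adam32 read 7.60 to 12.6 in knockout and 1.50 to 3.00 in wild-type, and Adam18 read 10.0 to 17.2 and 22.0 to 29.9 in the same order. These 3 genes are known from testis, and all of these signals are far below the 95.2 of the filter. Adamtsl1 read 57.6, 46.9 and 70.6 in the knockout arrays and 71.8, 96.2 and 105 in the wild-type arrays, and Adam11, chosen after its values were seen, read 63.0 to 97.6 and 49.6 to 62.8. Adamtsl5, the second brightest of its class, was at 0.59 ± 0.58 (SE) with overlapping arrays. The largest difference of all 70 genes, also named after its values were seen, was that of Mmp7, the epithelial matrilysin, at -1.48 ± 0.51. It read 22.2, 124 and 24.1 in the knockout arrays and 119, 182 and 158 in the wild-type arrays, so that knockout 26 lay above wild-type 13.

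Many of these genes sit next to each other in the genome. In the RefSeq gene order of GRCm38.p6, which is not tied to the array values, 24 of the 70 genes fell into 8 runs with no other protein-coding gene between members, and 7 of the 24 were above the filter. The longest run held 7 MMP genes (Mmp13, Mmp12, Mmp1b, Mmp3, Mmp1a, Mmp10 and Mmp8), of which Mmp3 and Mmp8 were above the filter, and their differences ran from -0.61 to 0.32. Another held Adam18, Adam3, Adam5, Adam32 and Adam9, of which Adam9 and Adam3 were above it. Adamts1 and Adamts5 are also neighbours, with differences of -0.39 and -0.14. Signals of near-identical relatives such as Adam6a and Adam6b, Adam1a and Adam1b, or Mmp1a and Mmp1b may not be told apart by their probes, and all 6 were below the filter.

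Regulators of these enzymes and other pericellular proteases gave no call either. Of 33 genes listed, 31 had a probe set and 22 were tested. None had an adjusted or an unadjusted p under 0.05 in limma, where 4.69% of all genes had the latter, and the smallest unadjusted p was 0.0779. Of the 31, 21 read lower in knockout, with a median of -0.10, or 17 with -0.06 without knockout 66. Reck, a membrane-anchored MMP inhibitor, was at -0.04 ± 0.17 (SE), and Furin, the convertase that removes the propeptides of many of these proteases, at 0.04 ± 0.15. The serine protease Htra1 was at -0.63 ± 0.33, and the procollagen C-proteinase Bmp1 at -0.37 ± 0.23, both with overlapping arrays. The cysteine cathepsin Ctsl read 3072, 3032 and 3080.5 on knockout arrays 1, 26 and 66 and 3252, 3495 and 3100.0 on wild-type arrays 13, 23 and 57, without overlap, and had a difference of -0.10 ± 0.09. In all, 3 of the 31 were without overlap, where 10.6% of all genes were, and 2 of the 3 had knockout above. These were Pcsk7, at 309 to 326 in knockout and 269 to 298 in wild-type, and Rhbdf2, below the filter, at 31.1 to 35.5 and 18.3 to 27.0.

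Substrates of these enzymes gave no call after adjustment. Of 26 genes, 23 were tested and 3 had an unadjusted p under 0.05 in limma, where 4.69% of all genes did: the collagen genes Col1a1 and Col1a2 and the proteoglycan Lum, all lower in knockout. Col1a1, the main fibrillar collagen chain, read 616, 489.6 and 523 on knockout arrays 1, 26 and 66 and 727, 774 and 830.2 on wild-type arrays 13, 23 and 57, with no overlap. Its difference of -0.51 ± 0.14 (SE) had an adjusted p of 0.974 in limma. Over the 26 genes the median was -0.04, with 17 below 0, or 0.0029 with 12 below 0 without knockout 1. The versican gene Vcan, whose product is the main ADAMTS target in cardiac jelly, read 3929, 4552 and 4960.0 in the knockout arrays and 4586, 4638.5 and 5003.5 in the wild-type arrays. Its groups overlapped and its difference was -0.09 ± 0.11. Hapln1, the link protein that anchors versican to hyaluronan, read 1799, 2040.1 and 1898 in the knockout arrays and 1608, 1627 and 1739 in the wild-type arrays. These did not overlap, and the difference of 0.20 ± 0.10 had an unadjusted p of 0.0783 in limma. The Notch receptor gene Notch1, a target of Adam10, was at 0.05 ± 0.17. The ErbB ligand Nrg1 and its receptor Erbb4, which are cut by Adam19, Adam17 and relatives, were below the filter, at means of 10.0 and 29.8 in knockout and 30.0 and 64.6 in wild-type. Nrg1 read 5.0 to 17.4 in knockout and 21.7 to 41.0 in wild-type, without overlap but far below the filter. Erbb4 read 18.9 to 49.6 and 29.3 to 83.9 in the same order, with overlap. Signals this low may report little more than background.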

How the data were processed

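The deposited values are linear probe set intensities; per the submitters' processing notes, the authors used GCOS and MAS5. Neither versions nor detection calls were at hand. A common trimmed mean shows per-array scaling, so signals are relative to the rest of an array. An array gives no counts, and 3 arrays per genotype limit the precision (median standard error 0.21 over tested probe sets). Intensities were transformed as log2(intensity + 16). The 22518 of 45101 probe sets above the median were fitted in limma 3.58.1 (R 4.3.3) with a trend, two-sided, at an adjusted p of 0.05, and the brightest probe set with 1 symbol stood for each gene. All 70 symbols matched RefSeq. Standard errors of dimmer genes came from the same fit without the filter. The fit was tested on simulated data. Named in full were the Timp genes, 13 proteases known from embryonic heart, the 3 brightest of each other class, the 5 of smallest p in each direction and up to 4 non-overlapping genes below the filter. Members and lists were chosen with earlier results of these data known. Alternatives were other pseudocounts, filters, normalizations, variance models, array weights, probe set choices and thresholds, and each array left out. Mmp15 was not analysed here. Figures used Matplotlib 3.10.9 (Python 3.11.15).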

Additional observations from a re-analysis of the deposited data

How the results depend on the processing

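No gene of these families passed an adjusted p of 0.05 in limma under any of the 18 alternatives, including a threshold of 0.1. Counts at an unadjusted p under 0.05, made after seeing the data, ran from 1 of 19 (filter at the 70th percentile, 5.18% of all genes) to 7 of 36 (array quality weights, where 12.1% of all genes had such a p, and without knockout 66, 7.41% of all genes), with 6 of 70 without a filter (4.89% of all genes). Over all genes, 8 passed with array quality weights, Krt8 among them. When 1 array was left out 0 to 2 passed, and without knockout 66 it was Postn. The median over the 70 genes ran from -0.18 (without knockout 66) to 0.015 (without knockout 1) over the left-out arrays. Small differences changed sign. With array quality weights Adamts9 was at -0.030, Adam10 at 0.0027 and Adamtsl3 at 0.13. Averaging all probe sets of each gene, also those below the filter, put Adamts9 at -0.074 and Adam10 at 0.027. The Adam10 probe sets above the filter gave -0.03 and 0.0051, and those below it gave -0.11 and 0.24. Over the left-out arrays Adamts9 ran from -0.068 to 0.089, Adam10 from -0.14 to 0.087, Adam19 from -0.24 to 0.085, Timp3 from -0.33 to 0.0021, Timp1 from -0.0050 to 0.080 and Adam9 from -0.034 to 0.16. The cause was not tested. Adam12 and Mmp9 stayed above 0 in every alternative that tested them, from 0.18 to 0.57 and from 0.48 to 0.85. Mmp9 was tested in 15 alternatives, and not with the filter at the 70th percentile or with averaged probe sets. It passed the main filter through the knockout arrays, where it is high, so its range is no support. No paired analysis was possible because the genotypes share no replicate number.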
